A study of Mus musculus with 12 samples.

Results

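Described here are 10 genes of the response to low oxygen in chondrocytes, the cells that make cartilage, cultured from mouse ribs. They are Hif1a, Epas1, Egln1, Egln3, Vegfa, Bnip3, Ankrd37, Car9, Car12 and Adm, taken by gene symbol from a fixed list, and all 10 were found among the 17922 genes of the deposited table. The list was chosen with earlier results of these data known. Counts of its genes set beside those of all genes are therefore not counts of an unselected set. RNA-seq was done on 12 samples in 4 groups of 3. The LDH knockout was taken at postnatal day 5 from Col2-Cre mice with floxed Ldha on both alleles and heterozygous loss of Ldhb, and was compared with LDH controls of the same age. The Acly knockout was taken at stage E18.5, just before birth, from Col2-Cre mice with floxed Acly on both alleles, and was compared with Acly controls of that age. Knockouts and controls were littermates on a mixed strain in which C57BL/6 dominates. The control genotype, including whether controls carried Cre, is not given in the sources used here, nor is whether 1 sample is 1 animal or a pool, so p-values measure the spread between these samples. All cells were released with collagenase and kept in culture with serum before lysis. Col2-Cre acts in cells that express the type II collagen gene. Cells in which it never acted, in themselves or their forebears, keep the floxed alleles intact. Which cells of the preparation these were was not measured.

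Cells sense oxygen through enzymes that use it. The prolyl hydroxylases encoded by Egln1 and Egln3 mark the alpha subunits of hypoxia-inducible factor (HIF), encoded by Hif1a and Epas1, and the marked subunits are bound by the von Hippel-Lindau protein and degraded. When oxygen is scarce the alpha subunits persist, pair with the Arnt protein and activate genes for glycolysis, vessel growth, mitophagy and pH control. Fetal growth cartilage has no vessels and is low in oxygen, and Hif1a is needed for chondrocytes to survive there. The cells read here had been taken out of that tissue and cultured, and their oxygen supply in culture is not reported here. Because the alpha subunits are controlled mainly as proteins, mRNA levels of Hif1a and Epas1 do not measure HIF activity.

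The targeted genes were read first. Ldha was at 91.8 ± 7.03 CPM (counts scaled to library size by TMM) in the LDH knockout group, 10.3% of the 894 ± 51.3 CPM in its control group (SD, n = 3), and Ldhb at 16.0 ± 1.16 against 12.4 ± 0.604 CPM. Acly kept 37.4% of its control level in the Acly knockout group, 69.9 ± 18.8 against 187 ± 4.69 CPM. Each of these 3 comparisons had a 2-sided exact permutation p of 0.1, and groups of 3 can give none lower. Libraries held 26362407 to 28154143 expected counts. Markers of chondrocytes were present in all samples, with 7 genes summing to 7601 to 28281 CPM, 1 of them at 0 in LDH control replicate 2. This sum was higher in every knockout than in every control of its set. Acly knockout replicate 2 stood apart from its group, with a sum of 4 fibrous tissue markers of 1029.7 CPM against 2736 and 2865 CPM in the other Acly knockouts. Y-linked genes were present in LDH controls 1 and 2 (97.6 and 106 CPM), at 0.632 CPM in control 3 and no higher than 0.0388 CPM in any LDH knockout, so the LDH groups also differed in this signal. A covariate for it therefore overlaps with the knockout in the LDH set, and a call lost with it cannot be assigned to either. In the Acly set the Y-linked signal was also uneven. It was at 0.0707, 72.8 and 78.8 CPM in knockouts 1 to 3 and at 0.355, 111 and 2.66 CPM in controls 1 to 3. In bulk RNA, fewer cells of a type and less RNA per cell cannot be told apart.

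Levels were compared between genes on the deposited TPM scale, which is per length of transcript. In LDH controls Vegfa, which encodes the main growth signal for vessels, averaged 150.5 TPM and Hif1a 137 TPM, and the values of these genes overlapped. Bnip3, a mitophagy receptor of the mitochondrial outer membrane, followed at 36.7 TPM, then Egln1 at 26.6 TPM and Car12 at 21.9 TPM, each above the next in all 3 samples. Adm, the vasodilator peptide adrenomedullin, was at 6.11 TPM, Egln3 at 4.45 TPM, Epas1 at 3.84 TPM and Car9 at 3.77 TPM, and neighbours among these 4 overlapped. Ankrd37, an ankyrin-repeat protein gene known as a HIF target, was lowest at 0.503 TPM.

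In Acly controls the order was the same for the first 4 ranks, with Vegfa at 228 TPM, Hif1a at 127 TPM, Bnip3 at 77.7 TPM and Egln1 at 25.3 TPM, and no neighbours among these overlapped. Car9 and Car12, which encode membrane carbonic anhydrases that hydrate CO2 outside the cell and so handle acid, came next at 16.3 and 15.4 TPM and overlapped. Egln3 was at 13.2 TPM and Epas1 at 7.45 TPM. Ankrd37 and Adm were lowest at 3.22 and 2.55 TPM and overlapped. Hif1a therefore exceeded Epas1 in every group, by mean levels of 86.0 against 9.29 TPM in the group where the values were closest, the Acly knockout.

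**Figure D1:**
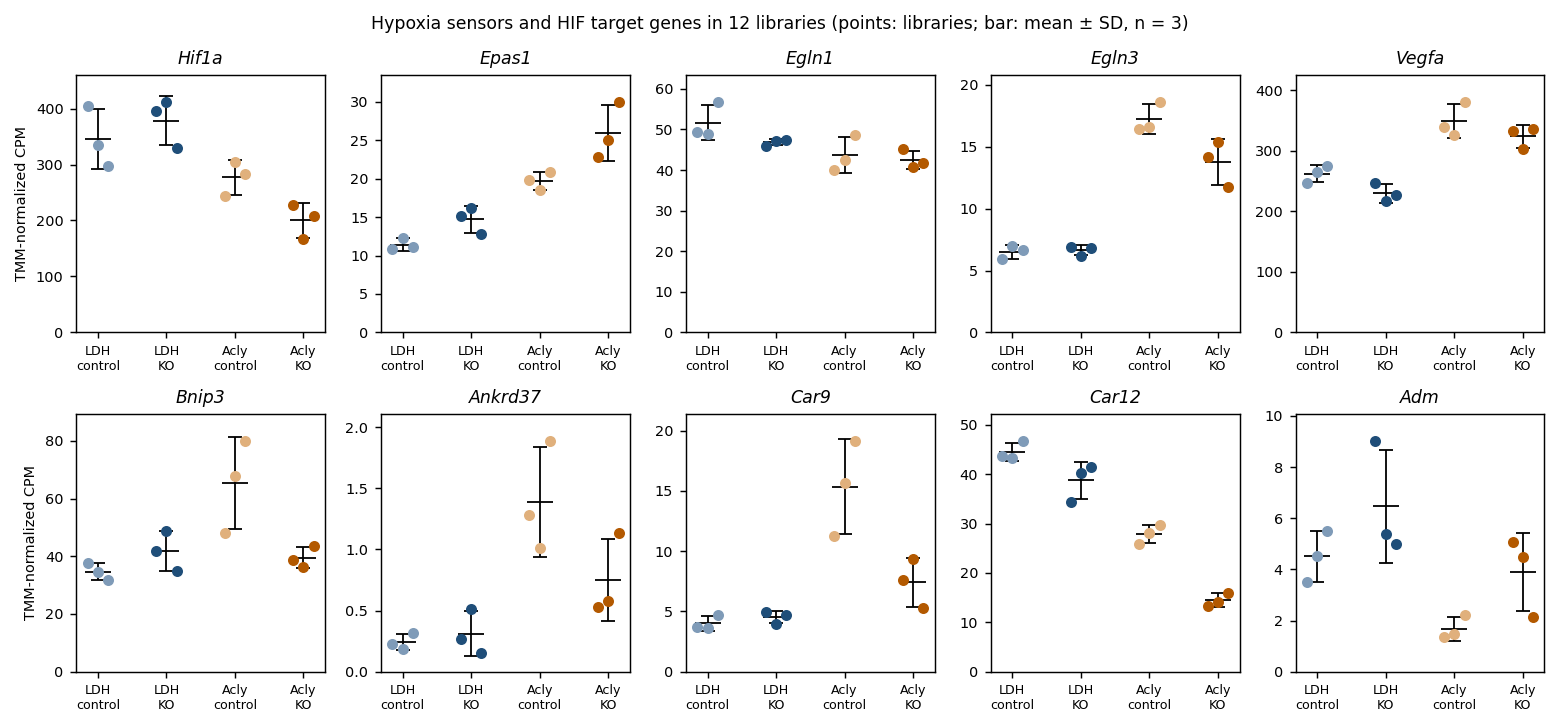
TMM-normalized CPM of each of the 10 genes (y axes, linear from 0) in the 12 libraries, by group (x axes). Points are libraries and bars give mean ± SD (n = 3). Car12 separates Acly knockouts (13.3 to 16.0 CPM) from Acly controls (25.9 to 29.6 CPM), and Egln3, Ankrd37 and Car9 are higher in Acly controls than in LDH controls.

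The LDH deletion was made to study lower glycolysis, which was not measured here, and the comparison asked how the hypoxia genes stood in these cells. Of the 9 tested genes 0 reached the threshold, an adjusted p under 0.05 in edgeR's quasi-likelihood test, against 2.49% of all 13321 tested genes (1.43% higher and 1.07% lower). At an unadjusted p under 0.05 there were 2, Epas1 and Vegfa, where 2614 of all 13321 tested genes had such a p. DESeq2 called 0 of these genes, and 902 genes in all. The log2 fold changes of the 9 genes ran from -0.20 to 0.52 with a median of 0.13, beside 0.01 for all tested genes. Ankrd37 had too few counts to be tested in this set, at 0.312 ± 0.182 CPM in knockouts and 0.242 ± 0.0663 CPM in controls (SD, n = 3). Markers of other cell types also moved in this set: 5 bone cell markers summed to 12.7 to 28.9 CPM in knockouts and 58.9 to 79.8 CPM in controls, and 3 markers of hypertrophic chondrocytes to 235 to 389 against 91.5 to 158 CPM. Taken singly, 3 of the 5 bone markers were lower in every knockout than in every control, and 1 of the 3 hypertrophic markers was higher. Their part in the results on these genes was not tested.

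Of the alpha subunits, Hif1a was at 404, 335 and 297 CPM in LDH control replicates 1 to 3 and at 395, 411 and 329 CPM in the knockouts, which overlapped. The estimate was 0.13 ± 0.13 (log2 fold change ± SE). Epas1 was at 10.9, 12.4 and 11.1 CPM in controls and 15.2, 16.2 and 12.8 CPM in knockouts. All 3 knockouts lay above all 3 controls, but the log2 fold change of 0.36 ± 0.13 (SE) did not pass, with an edgeR adjusted p of 0.163. The hydroxylase gene Egln1 was at 46.9 ± 0.752 CPM in knockouts and 51.7 ± 4.35 CPM in controls (SD, n = 3), and Egln3 at 6.63 ± 0.398 and 6.52 ± 0.568 CPM. Neither passed, with edgeR adjusted p of 0.387 for Egln1 and 0.952 for Egln3.

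Among the secreted signals, Vegfa was at 247, 266 and 274 CPM in LDH controls and at 246, 216 and 226 CPM in knockouts. The highest knockout lay just under the lowest control, and the log2 fold change of -0.19 ± 0.09 (SE) did not pass, with an edgeR adjusted p of 0.253. Adm was at 3.51, 4.53 and 5.49 CPM in controls and 9.0, 5.39 and 5.0 CPM in knockouts. Its log2 fold change was 0.52 ± 0.26 (SE), and without LDH knockout replicate 1, the highest of the 6, it was 0.21. Bnip3 overlapped between groups, at 41.9 ± 6.88 against 34.7 ± 3.06 CPM (SD, n = 3), as did Car9 at 4.54 ± 0.511 against 4.02 ± 0.625 CPM. Car12 was at 43.7, 43.3 and 46.6 CPM in controls and 34.5, 40.2 and 41.5 CPM in knockouts. These groups did not overlap, and the log2 fold change of -0.20 ± 0.09 (SE) had an edgeR adjusted p of 0.259.

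The Acly comparison asked the same of cells with less mRNA for ATP citrate lyase, the enzyme that supplies acetyl-CoA outside the mitochondria. The enzyme itself and acetyl-CoA were not measured here. Car12 fell to 52.3% of its control level and was the 1 gene of the 10 that passed by edgeR, where 0.136% of all 13973 tested genes did (0.0573% higher and 0.0787% lower). Another 5 genes had an unadjusted p under 0.05, of which Hif1a, Bnip3 and Car9 had every knockout below every control, Epas1 had every knockout above, and Adm overlapped. With Car12 that made 6 of 10, where 2211 of all 13973 tested genes had such a p by edgeR. The share of all genes whose groups did not overlap was not counted. Over the 10 genes 8 estimates were negative and 2 positive, with a median log2 fold change of -0.38, beside -0.0018 for all tested genes. DESeq2 called 4 of the 10, namely Car12, Bnip3, Car9 and Adm, and 253 genes in all, where edgeR called 19. The summed chondrocyte markers were higher in the knockouts, at 12790 to 15082 CPM against 7601 to 8233 CPM, and the 4 fibrous tissue markers were lower, at 1029.7 to 2865 CPM against 3137 to 3662 CPM. The sum of the 5 bone cell markers was also lower, at 81.7 to 124 CPM against 129 to 150.4 CPM, and that of the 5 macrophage markers higher, at 124 to 138 CPM against 100.1 to 113 CPM. Taken singly, 3 of 7 chondrocyte, 2 of 4 fibrous, 0 of 5 bone and 2 of 5 macrophage markers separated the groups in that direction. The sums of hypertrophic and muscle markers overlapped. Of the 3 hypertrophic markers 2 were higher and 1 lower in every knockout, and of the 6 muscle markers 3 were lower. None of these markers was at 0 in an Acly library. Their part in the results on these genes was not tested.

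The carbonic anhydrases had the lowest estimates. Car12 was at 25.9, 28.1 and 29.6 CPM in Acly controls and at 13.3, 14.04 and 16.0 CPM in knockouts. Every knockout was well below every control, and the log2 fold change was -0.93 ± 0.12 (SE) with an edgeR adjusted p of 0.0314. Without Acly knockout replicate 2 the log2 fold change was -0.93 and the call held, but leaving out any of the other 5 libraries lost it, with edgeR adjusted p of 0.0622 to 0.233 and log2 fold changes of -1.01 to -0.87. The replicate block likewise gave an adjusted p of 0.0884 and the covariate for Y-linked signal 0.0625, with log2 fold changes of -0.94 and -0.95. The deleted gene Acly itself, at -1.41 with an edgeR adjusted p of 0.0314, lost its call without the same 5 libraries (0.0603 to 0.233). It also lost it with the Y-linked covariate (0.0625) but kept it with the replicate block (0.0321). Car9 was at 11.3, 15.7 and 19.1 CPM in controls and 7.57, 9.34 and 5.30 CPM in knockouts. The groups did not overlap, but both were spread widely, and the log2 fold change of -1.03 ± 0.25 (SE) did not pass, with an edgeR adjusted p of 0.199. Without Acly knockout replicate 2 it was -1.25 and passed with 0.0299.

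Bnip3 was at 48.2, 67.9 and 79.8 CPM in Acly controls and 38.7, 36.3 and 43.7 CPM in knockouts. All knockouts lay below all controls, by -0.71 ± 0.17 (SE) on the log2 scale, with an edgeR adjusted p of 0.192. Ankrd37 was near the low end of detection, at 1.28, 1.01 and 1.88 CPM in controls and 0.530, 0.582 and 1.13 CPM in knockouts, which overlapped. Its log2 fold change was -0.87 ± 0.39 (SE) with an edgeR adjusted p of 0.324. Exons of Ankrd37 overlap those of Ufsp2 and Lrp2bp on the other strand in the GENCODE M21 annotation, and the use of strand in counting is not given in the sources used here, so its counts are uncertain.

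Of the alpha subunits, Hif1a was at 244, 304 and 283 CPM in Acly controls and 228, 166 and 207 CPM in knockouts. The groups were close but did not overlap, and the estimate of -0.46 ± 0.13 (log2, SE) had an edgeR adjusted p of 0.230. Replicate 2 was the lowest knockout, and without it the log2 fold change was -0.35. Epas1 went the other way, at 19.8, 18.6 and 20.9 CPM in controls and 22.8, 25.1 and 30.0 CPM in knockouts. Its log2 fold change was 0.41 ± 0.12 (SE) with an edgeR adjusted p of 0.245. The 7 endothelial markers, genes of the vessel lining where Epas1 is also known to be expressed, summed to 86.1 to 97.0 CPM in knockouts and 74.8 to 92.5 CPM in controls, which overlapped. Their log2 fold changes were positive for 6 and negative for 1. Their part in the Epas1 values was not tested.

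Egln1 did not separate the Acly groups, at 42.5 ± 2.31 CPM in knockouts and 43.7 ± 4.43 CPM in controls (SD, n = 3). Egln3, which HIF itself induces, was at 16.5, 16.6 and 18.6 CPM in controls and 14.2, 15.4 and 11.8 CPM in knockouts. All knockouts were lower, with a log2 fold change of -0.31 ± 0.14 (SE) that did not pass. Vegfa overlapped, at 324 ± 18.6 against 349 ± 28.1 CPM (SD, n = 3) and a log2 fold change of -0.09 ± 0.09 (SE). Adm was at 1.35, 1.46 and 2.20 CPM in controls and 5.06, 4.47 and 2.16 CPM in knockouts. Replicate 3 of the knockout lay among the controls, and the log2 fold change of 1.24 ± 0.35 (SE) had an edgeR adjusted p of 0.232.

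**Figure D2:**
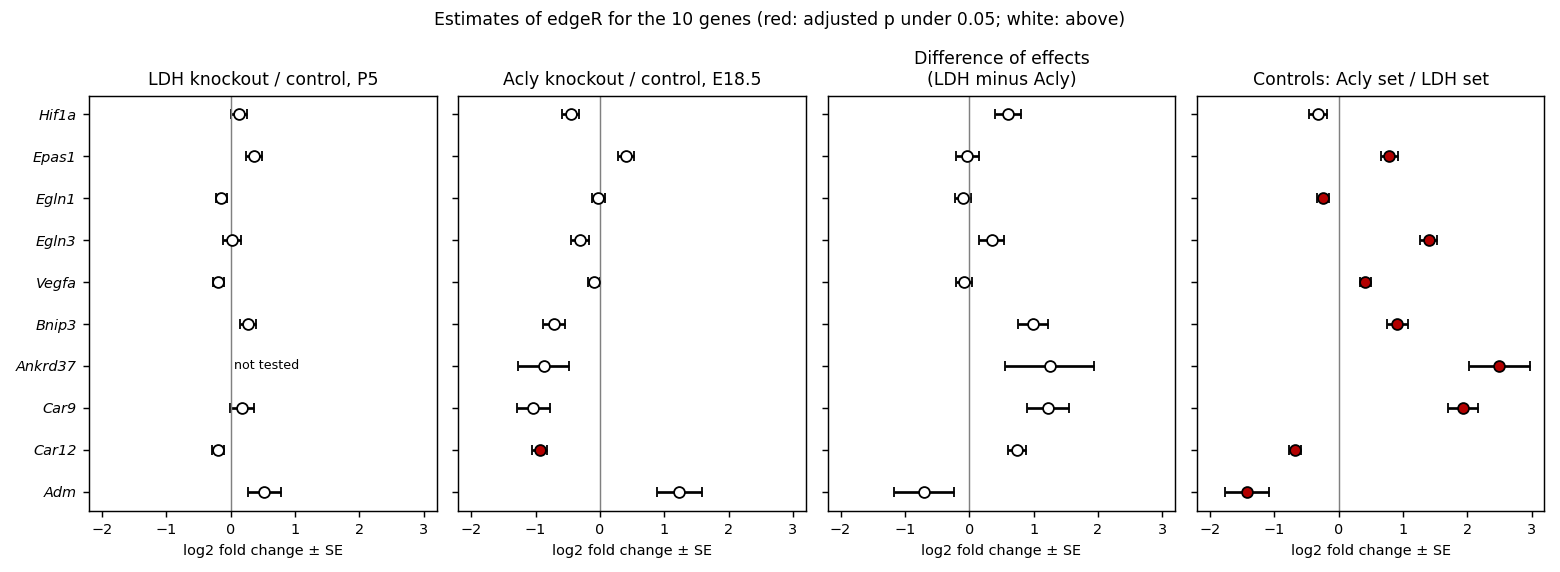
Log2 fold changes ± SE (x axes) of the 10 genes (rows) by edgeR in the LDH comparison, the Acly comparison, the interaction and the contrast of control groups. Red points reached the threshold of 0.05: 0 of 9 tested genes in the LDH panel, Car12 at -0.93 in the Acly panel, 0 in the difference and 9 in the controls.

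The sequences before the start sites of the 4 genes with the most negative estimates in the Acly knockout are given to show whether they hold the core of the hypoxia response element to which HIF binds. They are from RefSeq (GRCm38.p6), cover the 250 bases before the start, and read 5′ to 3′ on the gene's strand. Capitals mark each match to ACGTG or GCGTG on either strand, which can overlap one another. Car12 lies at chr9:66713436-66713685 (+), Car9 at chr4:43506776-43507025 (+), Bnip3 at chr7:138909507-138909756 (-) and Ankrd37 at chr8:45999851-46000100 (-).
Car12: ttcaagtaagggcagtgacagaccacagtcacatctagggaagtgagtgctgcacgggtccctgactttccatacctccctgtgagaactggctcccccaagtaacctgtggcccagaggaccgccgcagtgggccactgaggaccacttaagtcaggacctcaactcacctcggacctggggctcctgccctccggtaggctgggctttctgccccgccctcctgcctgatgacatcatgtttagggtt
Car9: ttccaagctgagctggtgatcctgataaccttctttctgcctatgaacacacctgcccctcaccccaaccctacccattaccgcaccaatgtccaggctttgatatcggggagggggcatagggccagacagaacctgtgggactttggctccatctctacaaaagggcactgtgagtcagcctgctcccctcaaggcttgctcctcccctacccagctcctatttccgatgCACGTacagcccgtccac
Bnip3: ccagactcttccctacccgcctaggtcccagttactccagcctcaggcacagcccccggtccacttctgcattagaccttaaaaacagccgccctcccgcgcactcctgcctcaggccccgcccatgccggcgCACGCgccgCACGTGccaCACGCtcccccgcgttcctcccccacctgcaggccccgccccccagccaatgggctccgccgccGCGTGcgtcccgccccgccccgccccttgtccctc
Ankrd37: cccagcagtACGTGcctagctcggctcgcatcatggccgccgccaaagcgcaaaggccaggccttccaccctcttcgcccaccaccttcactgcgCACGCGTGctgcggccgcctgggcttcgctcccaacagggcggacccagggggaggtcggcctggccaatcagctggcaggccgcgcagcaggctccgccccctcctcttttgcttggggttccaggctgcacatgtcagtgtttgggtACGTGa
Car12, the gene that passed, had 0 matches in this window, Car9 had 1, Ankrd37 had 4 and Bnip3 had 5. The match of Car9 begins 18 bases before the start, and the Bnip3 window holds the overlapping pair CACGTG from 108 bases before it. Of the 10 genes, 9 had a RefSeq window and 8 of these held at least 1 match in any window. Car12 held none, and Vegfa held none at its upstream start. Vegfa had windows at 2 starts. The upstream one, at chr17:46032378-46032627 (-), held 0 matches. The other, at chr17:46025164-46025413 (-), lies further along the gene and held 2, so these do not lie before the upstream start. Counted by gene, 7669 of 14009 genes in the table with a window held a match. Counted by window, 8 of the 10 windows of these genes did, beside 49.8% of 17617 windows of the same length for genes in the table. Matches are letters only and do not show binding.

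The difference between the knockout effects was tested as an interaction over all 12 samples, in which the gene deleted and age coincide. None of the 10 genes passed by edgeR, against 0.161% of 14251 tested genes (0.0912% higher and 0.0702% lower). At an unadjusted p under 0.05 there were 4, where 1855 of all 14251 tested genes had such a p. Car12 came closest, with an LDH effect less negative than the Acly effect by 0.75 ± 0.14 (SE) on the log2 scale and an edgeR adjusted p of 0.0580. For Bnip3 the difference was 0.99 ± 0.23 and for Car9 1.23 ± 0.33 (SE), with edgeR adjusted p of 0.119 and 0.175. For Hif1a it was 0.60 ± 0.20 (SE), with 0.268. DESeq2, which called more of all genes than edgeR did, called Car12, Bnip3 and Car9. Without LDH knockout replicate 3 edgeR called Bnip3 and Car12, with adjusted p of 0.0472 and 0.0453, and without Acly knockout replicate 3 it called Car12, with 0.0422. Epas1 and Egln1 had estimates near 0, at -0.03 ± 0.18 and -0.10 ± 0.13 (SE).

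The control groups were set side by side to show how far the 10 genes differed between the sets before any knockout. Age, mouse line and any library batch cannot be told apart here. Of the 10 genes 9 passed by edgeR, where 55.0% of all 14251 tested genes did, so that most genes of either kind differed between these sets. Higher in Acly controls were 6 of the 10, where 29.4% of all tested genes were called higher. Ankrd37 was at 1.39 ± 0.448 CPM against 0.242 ± 0.0663 CPM in LDH controls (SD, n = 3), Car9 at 15.4 ± 3.92 against 4.02 ± 0.625 CPM, and Egln3 at 17.2 ± 1.19 against 6.52 ± 0.568 CPM. Their log2 fold changes were 2.50, 1.93 and 1.40. Ankrd37 held only 6, 5 and 8 counts in LDH controls 1 to 3, and passed the count filter here only with the Acly libraries. That filter favours a call in this direction, so its place in these counts is no independent support. The overlap with genes on the other strand also leaves its counts uncertain. Bnip3, Epas1 and Vegfa were higher by 0.91, 0.79 and 0.41 on the log2 scale. Lower in Acly controls were 3, where 25.7% of all tested genes were called lower. These were Adm at 1.67 ± 0.464 against 4.51 ± 0.991 CPM (log2 fold change -1.43), Car12 at 27.9 ± 1.88 against 44.5 ± 1.82 CPM (-0.68) and Egln1 at 43.7 ± 4.43 against 51.7 ± 4.35 CPM (-0.24). Hif1a did not pass by edgeR, at 277 ± 30.8 against 346 ± 54.2 CPM (log2 fold change -0.32, adjusted p 0.0687). It passed by DESeq2 (-0.33, adjusted p 0.0442), and by edgeR without LDH control replicate 3 (-0.42, 0.0327) or Acly knockout replicate 2 (-0.32, 0.0379). Scaling moved the whole comparison, since the median log2 fold change of all tested genes was 0.02 with TMM, 0.19 without it and 0.18 on FPKM. Egln1 lost its call without TMM, at -0.07, and on FPKM, at -0.07, while the other 8 calls held under both. Without LDH control replicate 3, Acly control replicate 1 or Acly control replicate 2, Egln1 also lost its call, with log2 fold changes of -0.17, -0.18 and -0.22. The sum of endothelial markers was 74.8 to 92.5 CPM in Acly controls and 11.3 to 15.6 CPM in LDH controls, and that of fibrous tissue markers 3137 to 3662 against 410 to 853 CPM. Their part in these differences was not tested.

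The machinery that serves the 10 genes was examined in a list of 15 others, among them Arnt, the partner of the alpha subunits, Vhl, the von Hippel-Lindau gene, and Cited2, which encodes a protein that competes with HIF for the coactivators Ep300 and Crebbp. Counts in this and the later lists stand beside those of all tested genes. An unadjusted p under 0.05 by edgeR was held by 2614 of 13321 for LDH, 2211 of 13973 for Acly and 1855 of 14251 for the difference. DESeq2 called 902 genes in all for LDH and 253 for Acly. In the LDH comparison 0 of 15 passed by edgeR and by DESeq2, with 2 at an unadjusted p under 0.05. Vhl was at 31.6 ± 2.10 against 38.5 ± 1.43 CPM (SD, n = 3; log2 fold change -0.29, edgeR adjusted p 0.0999), and Crebbp, a coactivator gene, at 110.1 ± 7.87 against 95.2 ± 2.81 CPM. In the Acly comparison edgeR called 0 of 15 and DESeq2 1, and 4 had an unadjusted p under 0.05. Cited2 was at 306 ± 111 against 192 ± 11.9 CPM and Egln2, a further prolyl hydroxylase gene, at 82.4 ± 5.47 against 70.4 ± 3.34 CPM. The difference of the effects passed for 0 of 15 by edgeR and by DESeq2, with 2 at an unadjusted p under 0.05, and was -0.70 for P4htm and 0.31 for Crebbp. Without LDH knockout replicate 3 edgeR called 1 of 15 in the LDH comparison. Between the control groups 8 of 15 passed, 2 higher and 6 lower in Acly controls, where 55.0% of all tested genes passed. Leading were Cited2 at 192 ± 11.9 against 1386 ± 207 CPM, Arnt2, Hif3a, Hif1an, Eloc and Elob, with log2 fold changes of -2.85, 1.85, 2.78, -0.51, -0.36 and -0.41.

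Glycolytic HIF targets were read in a list of 19 that leaves out Ldha. In the LDH comparison edgeR called 0 and DESeq2 1, 8 had an unadjusted p under 0.05, and the median log2 fold change was 0.12. Pfkfb3, which makes the activator of phosphofructokinase, was at 52.3 ± 9.07 against 34.2 ± 8.10 CPM (SD, n = 3), a log2 difference of 0.61 (edgeR adjusted p 0.0946). Pfkl, a phosphofructokinase subunit, had 0.32. In the Acly comparison edgeR called 0 and DESeq2 3, 5 had an unadjusted p under 0.05, and the median was -0.03. Slc16a3, a lactate exporter, was at 48.8, 53.6 and 71.7 CPM in controls and 23.5, 25.5 and 31.6 CPM in knockouts. The groups were far apart, yet the log2 fold change of -1.10 ± 0.16 (SE) came short of the threshold (edgeR adjusted p 0.0592). Aldoc, an aldolase, had -0.83 (edgeR adjusted p 0.187). The difference of effects was 1.17 for Slc16a3 and 1.03 for Pfkfb3, both with an edgeR adjusted p of 0.101. Leaving out LDH knockout replicate 3 gave 2 calls in the LDH comparison, and leaving out Acly knockout replicate 2 gave 1 in the Acly comparison. Between control groups 12 of 19 passed, where 55.0% of all tested genes did, with Slc16a3, Pfkfb3, Pfkp and Pfkfb4 higher and Hk2 and Pgam1 lower among the 6 with the lowest p. The count was 7 without LDH control replicate 3 and 7 without Acly control replicate 2.

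In a list of 41 further HIF targets, 40 were tested. In the LDH comparison 3 rose and 0 fell, where 1.43% of all tested genes were called higher and 1.07% lower. DESeq2 called 8 of the list, and 902 genes in all. The count by edgeR was 7 without LDH knockout replicate 3, and 1 without LDH knockout replicate 1 or 2 or control replicate 2. Loxl2 and Lox encode enzymes that start collagen cross-links, and P4ha2 a subunit of the enzyme that hydroxylates collagen prolines. Loxl2 was at 42.6, 40.5 and 33.0 CPM in LDH controls and 140.3, 139 and 99.8 CPM in knockouts, with a log2 fold change of 1.71 ± 0.14 (SE) and an edgeR adjusted p of 0.00133. The groups were far apart. Lox was at 211 ± 62.5 against 109 ± 21.97 CPM and P4ha2 at 81.6 ± 7.07 against 56.0 ± 6.05 CPM (SD, n = 3), with edgeR adjusted p of 0.0394 and 0.0264. The calls of Lox and P4ha2 were lost on leaving out LDH knockout replicate 1 or 2 or control replicate 2, that of P4ha2 also without control replicate 1, and that of Lox also without control replicate 3 and on FPKM. Chondrocyte markers summed to 18742 to 28281 CPM in these knockouts and 10353 to 11963 CPM in controls, and their part in these rises was not tested. With the covariate for Y-linked signal, which overlaps with the knockout in this set, 0 of the 3 passed. The log2 fold changes were then 2.01 for Loxl2, 1.15 for Lox and 0.26 for P4ha2.

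In the Acly comparison 1 of these 40 fell and 0 rose by edgeR, where 0.0787% of all tested genes were called lower. DESeq2 called 3 of the list, and 253 genes in all. Angptl4, a secreted inhibitor of lipoprotein lipase, was at 150.2, 126 and 151 CPM in controls and 78.2, 78.8 and 84.5 CPM in knockouts. The knockouts were tightly grouped below the controls, with a log2 fold change of -0.81 ± 0.10 (SE) and an edgeR adjusted p of 0.0314. Like that of Car12, this call was lost on leaving out any library other than knockout replicate 2, with edgeR adjusted p of 0.0622 to 0.233, with the replicate block (0.106) and with the covariate for Y-linked signal (0.0780). Without knockout replicate 2 the count was 2 of 40. Of the 40 estimates 25 were negative, with a median of -0.12. The effects of both knockouts differed for 1 of the 40, Loxl2, by 1.82 ± 0.20 (SE) with an edgeR adjusted p of 0.00172. Between control groups 26 of 40 passed, 15 higher and 11 lower in Acly controls, where 55.0% of all tested genes passed, 29.4% higher and 25.7% lower. Of the 6 with the lowest p, Mxi1, Igfbp3, Cxcl12, Zfp395 and Stc1 were higher by 0.98, 1.90, 2.30, 1.06 and 2.89 on the log2 scale, and Angptl4 was lower at 142 ± 14.1 against 794 ± 121 CPM.

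**Figure D3:**
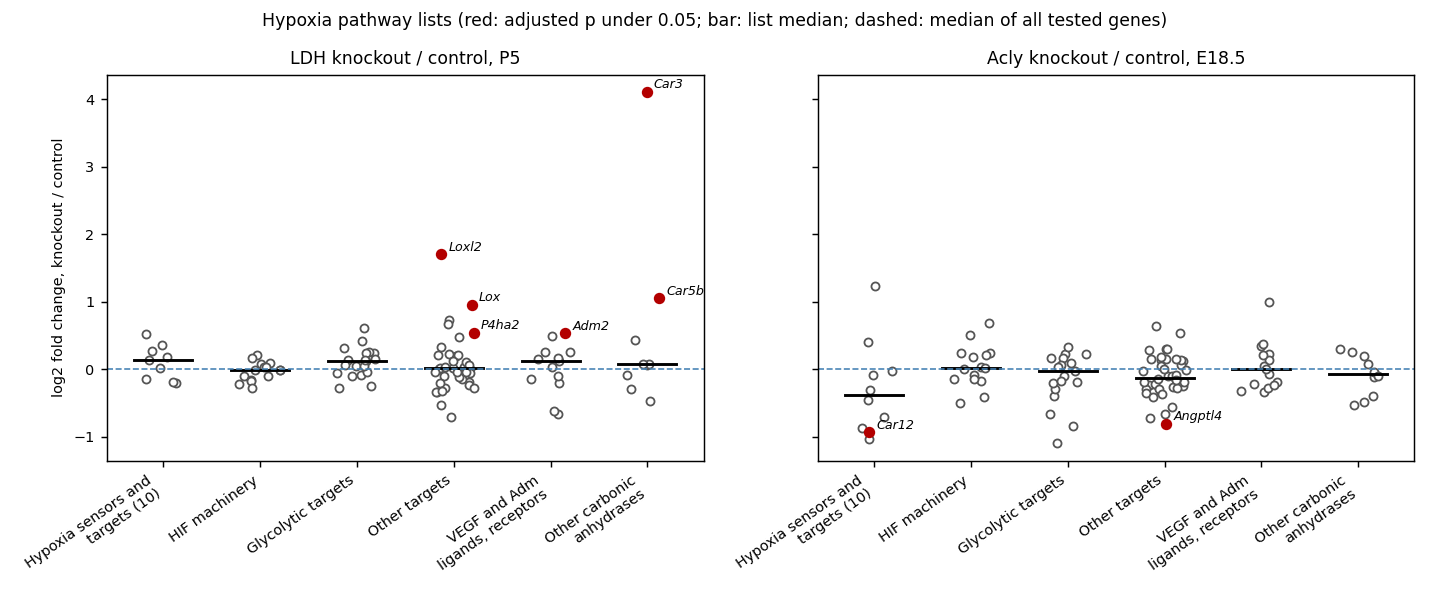
Log2 fold changes (y axis) of tested genes in 6 lists (x axis) for the LDH and the Acly comparison. Red points reached the threshold of 0.05, black bars are list medians and the dashed line is the median of all tested genes. Most points lie near 0. Loxl2 at 1.71 and Car3 at 4.11 stand out in the LDH panel, and the median of the 10 genes is -0.38 in the Acly panel.

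Ligands and receptors of the VEGF and adrenomedullin families were read beside Vegfa and Adm. In the LDH comparison 1 of 13 tested genes rose and 0 fell, where 1.43% of all tested genes were called higher and 1.07% lower. This was Adm2, which encodes a relative of adrenomedullin, at 149, 143 and 190 CPM in controls and 249, 233 and 219 CPM in knockouts, with a log2 fold change of 0.53 ± 0.11 (SE) and an edgeR adjusted p of 0.0438. The call was lost without LDH knockout replicate 1 or 2 or control replicate 1 or 2, with log2 fold changes of 0.45 to 0.54, and with the covariate for Y-linked signal, at 0.13. Without LDH knockout replicate 3 the count was 2 of 13. In the Acly comparison 0 of 15 passed by edgeR and by DESeq2, with 2 at an unadjusted p under 0.05, namely Vegfb at 47.5 ± 6.37 against 37.9 ± 3.26 CPM and Vegfd at 13.6 ± 1.75 against 10.6 ± 0.975 CPM (SD, n = 3). The difference of the effects passed for 0 of 15 by either tool, again with 2 at an unadjusted p under 0.05, and was -0.42 for Vegfb and 1.70 for Calca. Between control groups 11 of 15 were higher in Acly controls and 0 lower, where 29.4% of all tested genes were called higher and 25.7% lower. Among them were the VEGF receptors Kdr, Flt1 and Flt4, the coreceptor Nrp1, and the adrenomedullin receptor parts Calcrl and Ramp2, with log2 fold changes of 2.55, 3.04, 2.43, 3.04, 2.15 and 1.52, in the set where endothelial markers were also higher. The part of endothelial cells in these differences was not tested.

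The other carbonic anhydrases gave the scale for Car9 and Car12. Of 14 genes 9 were tested in the LDH comparison and 2 rose, while 0 fell, where 1.43% of all tested genes were called higher and 1.07% lower. Car3, a cytosolic form abundant in fat and muscle, was at 0.634, 0.936 and 1.18 CPM in controls and 13.3, 27.6 and 6.71 CPM in knockouts, and Car5b, a mitochondrial form, at 2.37 ± 0.208 against 4.92 ± 1.44 CPM (SD, n = 3). Their log2 fold changes were 4.11 and 1.05, with edgeR adjusted p of 0.00716 and 0.0499. The call of Car5b was lost on leaving out any library other than knockout replicate 3, with the replicate block (edgeR adjusted p 0.0730) and on FPKM (limma adjusted p 0.0633). With the covariate for Y-linked signal both calls were lost, at 3.31 for Car3 (edgeR adjusted p 0.318) and 0.89 for Car5b (0.451). The 6 fat cell markers summed to 21.4 to 53.0 CPM in LDH knockouts and 7.86 to 8.09 CPM in controls, with 5 of 6 higher in every knockout than in every control, and their part in the rise of Car3 was not tested. In the Acly comparison 0 of 10 passed by edgeR and by DESeq2, with 1 at an unadjusted p under 0.05, and Car13 and Car2 had log2 fold changes of -0.49 and -0.54. The difference of the effects passed for 0 of 10 by edgeR, with 2 at an unadjusted p under 0.05 and 1 by DESeq2, and it was 3.86 for Car3 and 0.94 for Car13. Between control groups 7 of 10 passed, where 55.0% of all tested genes did, and 4 without Acly control replicate 3, with Car8, Car3 and Car13 higher in Acly controls and Car6, Car15 and Car5b lower among the 6 with the lowest p.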

How the data were processed

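RNA-seq of 12 samples (4 groups of 3) was read from a table of 17922 genes. The deposited columns hold expected counts, FPKM and TPM, per the file headers. Reads were aligned with HISAT2 2.0.4 to mm9, per the submitters' processing notes, and libraries were made from poly(A) RNA, per the labels. The counting program, annotation and use of strand are not given in the sources used here. Expected counts, 26362407 to 28154143 per sample, were rounded and tested with edgeR 4.0.16 (R 4.3.3; quasi-likelihood F test, TMM scaling, filterByExpr, 2-sided, Benjamini-Hochberg adjustment over all tested genes, threshold 0.05). Each knockout was fitted with its own controls (6 samples). The difference of effects and the comparison of controls were fitted over all 12. The standard error is the log2 fold change divided by the square root of F. CPM levels are scaled over all 12 samples, on which 3 counts are 0.107 to 0.114 CPM. DESeq2 1.42.0, limma 3.58.1 on log2(FPKM + 0.1), other scalings and filters, a replicate block, a covariate for 4 Y-linked genes and leaving out each library were alternatives. The edgeR fit was also run on simulated data with the same relative spread for all genes and no outlying library. That run does not show how often its calls are wrong in these samples. Members and lists were chosen with earlier results of these data known. All 10 genes are named. Of each further list the genes past the threshold are named, or the 6 with the lowest p where more passed, or the 2 with the lowest p where none passed. Protein sequences were not analysed here.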

Additional observations from a re-analysis of the deposited data

Results flagged for a closer look

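The effects of the LDH and Acly knockouts differed by an interaction test in edgeR for 3 of the genes named here. For Loxl2 the LDH effect exceeded the Acly effect by 1.82 ± 0.20 (SE) on the log2 scale, with an adjusted p of 0.00172. For the targeted genes the difference was -3.18 for Ldha and 1.25 for Acly, with edgeR adjusted p of 5.52e-08 and 0.0411. The call for Acly was lost in 10 of 18 alternatives, with log2 differences of 1.05 to 1.39 and adjusted p of 2.52e-05 to 0.135 over all 18. That for Ldha was kept in all 18. Age coincides with the deleted gene here, so their effects cannot be told apart.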

How the results depend on the processing

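The LDH comparison called 332 genes, against 902 by DESeq2, 3 with the Y-linked covariate and 95 to 1068 on leaving out 1 library, the most without LDH knockout replicate 3. The Acly comparison called 19, against 253 by DESeq2, 11 without TMM, 32 without a filter, 6 with the Y-linked covariate and 0 to 132 on leaving out 1 library, the most without Acly knockout replicate 2. Of the 10 genes, 1 was called there, against 4 by DESeq2, 0 with the Y-linked covariate and 0 to 2 on leaving out 1 library. The difference of effects called 23 genes, against 213 by DESeq2 and 5 to 143 on leaving out 1 library, and 0 of the 10 genes, against 3 by DESeq2 and 0 to 2. The share of calls that were higher was 42.1% in the Acly comparison and 27.3% without TMM, and 53.3% between controls and 72.4% without TMM. Same-numbered samples did not deviate together (r from -0.19 to 0.05). A small litter effect could go unseen in this check, so whether the numbers pair littermates is not known. The replicate block called 362 genes for LDH, 8 genes and 0 of the 10 for Acly, and 5 for the difference. Some estimates near 0 turned sign. For LDH, Egln3 turned to -0.036 and Car9 to -0.21 with the Y-linked covariate, where Acly gave 0.021, and Egln3 to -0.0053 without knockout replicate 1 (-0.049 to 0.075 on leaving out 1 library). For Acly, leaving out 1 library gave -0.088 to 0.058 for Egln1 and -0.15 to 0.0096 for Ldha, both positive without control replicate 3. In the difference Epas1 spanned -0.11 to 0.088, positive without LDH knockout 3, LDH control 2, Acly knockout 3 or Acly control 2, and between controls Ldha spanned -0.031 to 0.13 on leaving out 1 library, negative without LDH control 2 or Acly control 3, while it passed without TMM at 0.24 and on FPKM at 0.24, with adjusted p of 0.0346 and 0.0389. The causes were not tested. With 3 samples a group, a gene that missed the threshold is not shown to be equal between groups.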
